A study of Mus musculus with 38 samples.

Results

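The troponin complex sits on the thin filament of striated muscle and couples calcium to contraction. Troponin C binds calcium, troponin I holds the filament in its inhibited state, and troponin T anchors the complex to tropomyosin. Heart and slow skeletal muscle share 1 troponin C but build the other subunits from separate genes, and the embryonic heart expresses slow troponin I before the cardiac form replaces it.

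The 5 genes described here were the slow skeletal and cardiac members, chosen by name from 29564 genes listed: Tnnt1 (slow troponin T), Tnnt2 (cardiac troponin T), Tnni1 (slow troponin I), Tnni3 (cardiac troponin I) and Tnnc1 (the troponin C of both muscle types). They were measured by RNA-seq in left ventricles of 38 C57BL6 mice of the genotype labelled WT, 1 library per mouse. The non_failing group (n = 8) was healthy and labelled as given vehicle. The other 3 groups modelled heart failure with a preserved ejection fraction (HFpEF), brought about by a high-fat diet with L-NAME, a blocker of nitric oxide synthesis, and then given vehicle (HFpEF+Veh, n = 8), TYA-018, an inhibitor of HDAC6 (HFpEF+TYA-018, n = 11) or empagliflozin, an inhibitor of SGLT2 (HFpEF+SGLT2i, n = 11). All 3 HFpEF groups therefore share the diet and L-NAME, so the effect of either alone, and of the drugs in healthy mice, was not measured. Labels and methods differ on the sex of the mice and on the length of treatment, and ages at sampling are not given in the sources used here. The questions were how these transcripts differ in the failing ventricle and whether either drug changes them.

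Depth ran from 21451631 to 59280407 counts per library. Heart muscle was borne out by its markers: the summed level of 10 cardiomyocyte genes was between 13534 and 25697 TPM (transcripts scaled to gene length and library total) in every library. That sum was not used to tell the left ventricle from other chambers. A pair of vehicle libraries stood apart. In V2532, 12 of 15 fast skeletal muscle markers were above all other vehicle libraries and their summed level was 115 TPM against at most 18.3 TPM in the other 7. In V2523, all 14 hepatocyte markers were above all other vehicle libraries, with a sum of 1501 TPM. Hepatocyte markers also differed by group, with sums of 25.4 to 384 TPM in the 8 non_failing libraries and at most 9.52 TPM in any drug-treated library. In the other 7 vehicle libraries the sum was 2.69 to 36.6 TPM. Adipocyte markers summed to at most 19.0 TPM in non_failing and at least 20.9 TPM in HFpEF+Veh, but Cidea made up nearly all of that sum. In non_failing Cidea had a mean of 15.0 TPM beside a mean sum of 15.3 TPM. In HFpEF+Veh it had a mean of 26.0 TPM beside a mean sum of 26.3 TPM. Cfd, Plin1, Lep and Ucp1 were at 0 in most libraries, so the sum describes Cidea rather than the marker set. Cidea, the 1 of 7 tested, was called higher in HFpEF+Veh (log2 fold change 0.69, edgeR adjusted p = 4.98e-07). So were 2 of 7 tested atrial genes, Bmp10 (2.38, 0.0252) and Dkk3 (1.44, 0.00444), with Bmp10 at a mean of only 0.0532 TPM in HFpEF+Veh. Of these 7, 4 were above 0 and 3 below, down to -2.46 for Myl7 (edgeR adjusted p = 0.0840). The atrial markers summed to a mean of 299 TPM in non_failing and 299.5 TPM in HFpEF+Veh. Rgs5, 1 of 7 smooth muscle and pericyte genes, was called lower (-0.36, 0.0313). Of these 7, 5 were above 0 and 2 below, up to 0.71 for Acta2 (edgeR adjusted p = 0.0770). Their sum had a mean of 238 TPM in non_failing and 243 TPM in HFpEF+Veh. The part of all these markers in the comparisons with non_failing was not tested. Vehicle values are given below with and without both V2532 and V2523.

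The genes lie in pairs in the mouse genome (GRCm38, GENCODE coordinates). Tnnt1 (ENSMUSG00000064179) spans chr7:4504570-4516382 on the minus strand, and Tnni3 (ENSMUSG00000035458) follows at chr7:4518305-4524229 on the same strand, 1923 bases away. Tnni1 (ENSMUSG00000026418) spans chr1:135779434-135810989 and Tnnt2 (ENSMUSG00000026414) spans chr1:135836354-135852260, both on the plus strand and 25365 bases apart. Tnnc1 (ENSMUSG00000091898) lies alone among the members at chr14:31208312-31211729 on the plus strand. Dnaaf3 overlaps Tnni3 on the same strand, so a share of reads in that overlap is divided by a model. Nisch overlaps Tnnc1 on the opposite strand.

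The promoters of the 3 genes that were lower in HFpEF+Veh than in non_failing are shown, since these 3 were the members called in that comparison. Each is the 250 bases upstream of the start listed by RefSeq on GRCm38.p6, printed 5′ to 3′ on the strand of the gene. They lie at chr7:4515976-4516225 (Tnnt1, minus strand), chr1:135836084-135836333 (Tnnt2, plus strand, 1 of 2 listed starts) and chr7:4522529-4522778 (Tnni3, minus strand). Capitals mark each E-box (CANNTG) and each TATAA on the printed strand.
Tnnt1: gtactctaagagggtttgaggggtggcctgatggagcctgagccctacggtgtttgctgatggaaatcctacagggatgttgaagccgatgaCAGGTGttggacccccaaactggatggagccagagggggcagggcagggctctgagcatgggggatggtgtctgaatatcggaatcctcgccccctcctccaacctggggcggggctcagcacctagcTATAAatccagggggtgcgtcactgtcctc
Tnnt2: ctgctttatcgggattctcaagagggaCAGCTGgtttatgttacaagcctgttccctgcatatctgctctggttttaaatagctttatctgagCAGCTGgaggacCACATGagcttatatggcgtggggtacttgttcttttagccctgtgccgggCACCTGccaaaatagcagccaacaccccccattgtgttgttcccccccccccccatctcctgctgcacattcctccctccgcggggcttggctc
Tnni3: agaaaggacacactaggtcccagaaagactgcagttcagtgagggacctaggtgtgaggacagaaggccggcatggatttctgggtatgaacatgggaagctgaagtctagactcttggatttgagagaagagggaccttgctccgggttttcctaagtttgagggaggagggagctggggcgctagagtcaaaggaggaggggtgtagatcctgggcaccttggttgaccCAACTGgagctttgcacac

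Motifs were counted on both strands. An E-box, the motif of basic helix-loop-helix factors, occurred 1 time in the Tnnt1 promoter, 4 times in that of Tnnt2 and 1 time in that of Tnni3, and it was present in 66.2% of 32851 mouse promoters of that length. TATAA occurred 1 time in Tnnt1, on the printed strand, 1 time in Tnnt2, on the other strand, and not in Tnni3, against 22.8% of promoters. CATTCC, the M-CAT motif of TEAD factors, occurred 1 time in Tnnt2 and was not found in Tnnt1 or Tnni3, against 12.6% of promoters. GATA occurred 1 time in Tnnt1, 3 times in Tnnt2 and not in Tnni3, against 53.6% of promoters. These letters describe the windows only and were not tied to the expression values.

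On the TPM scale, which is per length and so allows genes to be compared, the cardiac members were among the most abundant transcripts of the ventricle. Mean TPM over 38 libraries was 4424 for Tnni3 (rank 24 of all genes), 3930 for Tnnt2 (rank 27) and 2392 for Tnnc1 (rank 35). Tnnt1 had a mean of 6.79 TPM (rank 4906) and Tnni1 a mean of 0.0822 TPM (rank 14531). Tnni3 and Tnnt2 were close to each other and their order turned in some libraries, since the ratio of Tnni3 to Tnnt2 ran from 0.941 to 1.47. Tnnc1 stood below both in every library, at 0.478 to 0.702 of Tnnt2 and 0.421 to 0.650 of Tnni3. The slow forms were therefore minor: Tnnt1 made up at most 0.234% of the summed Tnnt1 and Tnnt2 level and Tnni1 at most 0.00584% of the summed Tnni1 and Tnni3 level in any library.

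**Figure D1:**
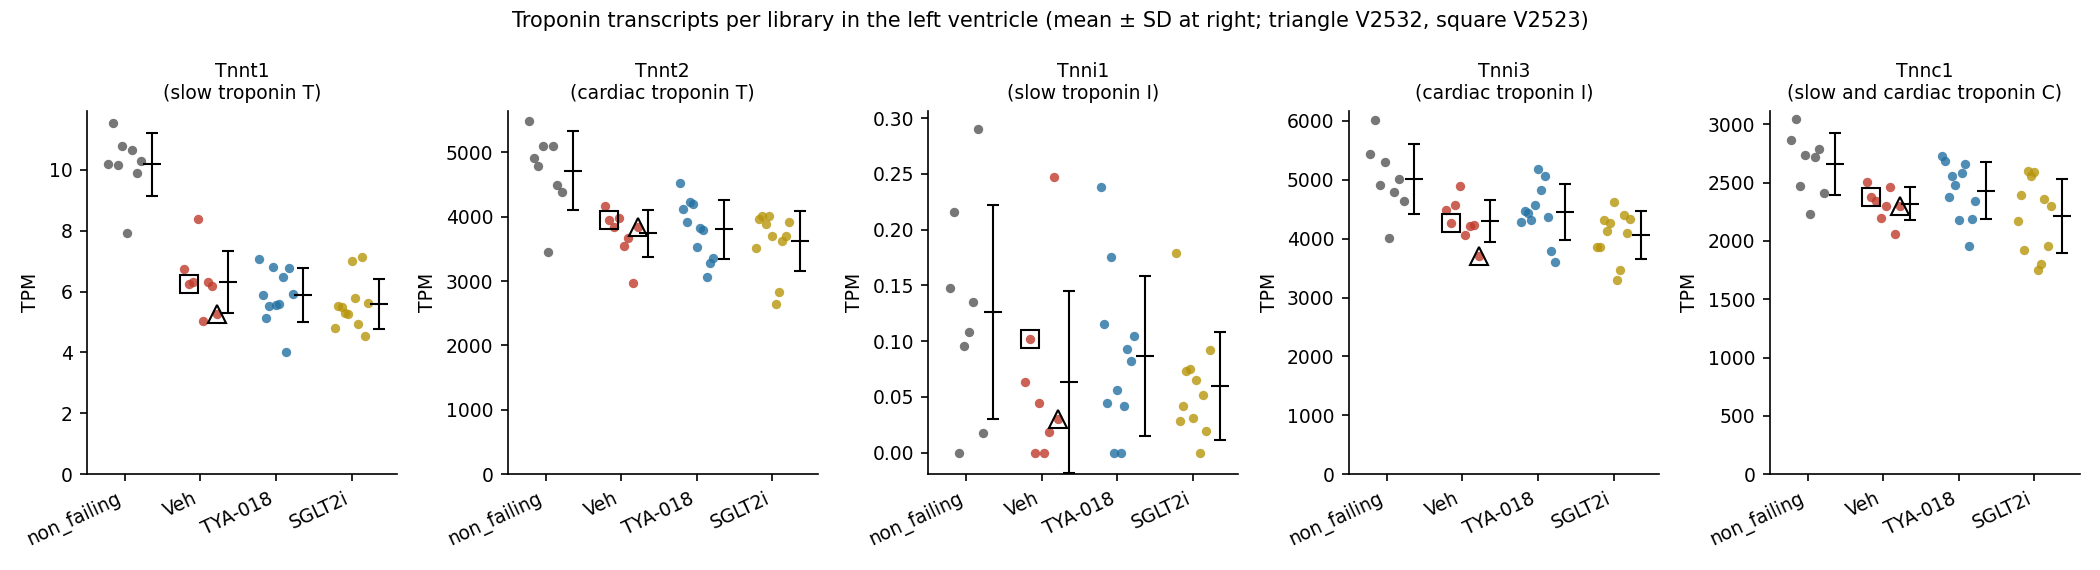
TPM of the 5 troponin genes (vertical axes, linear) in each library (points) of the 4 groups, with the mean ± SD at the right of each group. All non_failing libraries but V2507 lie between 9.91 and 11.5 TPM for Tnnt1, while the HFpEF groups lie between 4.02 and 8.39 TPM.

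Troponin T, slow form. Tnnt1 encodes the troponin T of slow skeletal fibres and is a trace transcript of the adult ventricle. In non_failing mice it was measured at 7.91 (V2507), 10.2 and 11.5 TPM as the lowest, median and highest library, and in HFpEF+Veh at 5.02, 6.28 and 8.39 TPM. The HFpEF+TYA-018 libraries ran from 4.02 to 7.05 TPM around a median of 5.89 TPM, and those of HFpEF+SGLT2i from 4.54 to 7.14 TPM around a median of 5.50 TPM. Every drug-treated library was below every non_failing library, and 1 of 8 vehicle libraries (V2527) fell inside the non_failing range on TPM. On CPM (counts scaled to library total, with TMM) the vehicle and non_failing groups did not overlap, at 6.25 to 9.60 CPM against 11.97 to 14.5 CPM. The share of all genes whose groups do not overlap was not counted, so such gaps, here and for Tnnt2 below, are descriptions only. Between 143 and 672 reads of Tnnt1 were counted per library.

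Tnnt1 was lower in HFpEF+Veh than in non_failing by -0.81 on the log2 scale (SE 0.09, 8 against 8 mice, edgeR adjusted p = 4.56e-08) and stood at 0.570 of the non_failing level, and all 8 vehicle libraries lay below the non_failing mean. Libraries counted as higher or lower beside an edgeR result were compared with the mean of the other group on log2 CPM. It ranked 8 by p among 13765 genes tested, in a comparison in which 3.15% of genes were called at an adjusted p under 0.05 and 1.38% were called lower. Against the same non_failing mice the log2 fold change was -0.74 in HFpEF+TYA-018 (SE 0.08, edgeR adjusted p = 5.17e-08, 11 of 11 libraries lower). In HFpEF+SGLT2i it was -0.90 (SE 0.08, edgeR adjusted p = 3.17e-10, 11 of 11 libraries lower). The 3 comparisons share the non_failing libraries, so they are not separate evidence.

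Neither drug moved Tnnt1 away from vehicle by more than the spread between mice. The log2 fold change against HFpEF+Veh was 0.07 for TYA-018 (95% interval -0.08 to 0.23, edgeR adjusted p = 0.669) and its sign turned to -0.06 when only library size was scaled, where the median of all genes shifted to -0.14. For SGLT2i it was -0.09 (95% interval -0.25 to 0.07, edgeR adjusted p = 0.765). Between the drug groups Tnnt1 was 0.16 log2 higher with TYA-018 (SE 0.07, unadjusted p = 0.0363, edgeR adjusted p = 0.340) and 0.058 higher on log2(TPM + 1), and 10 of 11 TYA-018 libraries were above the SGLT2i mean on CPM and 7 of 11 on TPM. Both intervals against vehicle end below 0.81, the size of the difference between vehicle and non_failing.

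Troponin T, cardiac form. Tnnt2 encodes the troponin T of the adult heart muscle. Its lowest, median and highest levels were 3457 (V2507), 4850 and 5491 TPM in non_failing and 2971, 3840 and 4170 TPM in HFpEF+Veh. HFpEF+TYA-018 libraries lay between 3069 and 4528 TPM (median 3818 TPM) and HFpEF+SGLT2i libraries between 2641 and 4012 TPM (median 3706 TPM). On TPM 7 of 8 vehicle libraries lay inside the wide non_failing range, which V2507 extended downward, while on CPM the vehicle and non_failing groups did not overlap. Tnnt2 was lower in HFpEF+Veh than in non_failing by -0.43 on the log2 scale (SE 0.09, edgeR adjusted p = 0.00459, 8 of 8 libraries lower) and stood at 0.741 of the non_failing level. In HFpEF+SGLT2i it was lower than non_failing by -0.37 (SE 0.08, edgeR adjusted p = 0.00448, 11 of 11 libraries lower). In HFpEF+TYA-018 the difference from non_failing was -0.23 (SE 0.08) and missed the threshold (edgeR adjusted p = 0.0863), although it passed with library size alone, with a length offset and on log2(TPM + 1). Against vehicle the log2 fold change was 0.20 with TYA-018 (95% interval 0.03 to 0.37, edgeR adjusted p = 0.208). It became 0.072 with library size alone and 0.032 on log2(TPM + 1), where the medians of all genes were -0.14 and -0.084. With SGLT2i the fold change was 0.06 (95% interval -0.11 to 0.23, edgeR adjusted p = 0.855). It became -0.021 with library size alone and -0.033 on log2(TPM + 1), where the medians were -0.07 and -0.041.

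Slow to cardiac troponin T. The ratio of the slow to the cardiac form was taken within each library, so that a factor common to both genes cancels. Non_failing libraries held 2.17 ± 0.165 TPM of Tnnt1 per 1000 TPM of Tnnt2 (SD, n = 8), with 1.85 (V2501), 2.16 and 2.35 (V2510) as lowest, median and highest. HFpEF+Veh libraries held 1.69 ± 0.274 (SD, n = 8), from 1.37 (V2532) through a median of 1.63 to 2.11 (V2527). With TYA-018 the ratio was 1.56 ± 0.2304 (SD, n = 11; 1.30 to 2.06, median 1.56) and with SGLT2i it was 1.57 ± 0.322 (SD, n = 11; 1.23 to 2.19, median 1.40). All groups overlapped, and the SGLT2i group was the widest, with its highest library (V2571) above the non_failing median.

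The ratio was lower in HFpEF+Veh than in non_failing by 0.36 on the log2 scale (first minus second -0.36, two-sided exact permutation test, p = 0.00218, Benjamini-Hochberg adjusted over 12 ratio tests 0.00870, lower in 8 of 8 libraries). It was lower in HFpEF+TYA-018 (-0.48, exact permutation p = 9.26e-05, adjusted 0.00111, 11 of 11 libraries) and in HFpEF+SGLT2i (-0.48, exact permutation p = 0.000741, adjusted 0.00445, 10 of 11 libraries) than in the same non_failing mice. Tnnt1 was thus lower by more than Tnnt2 was, in each HFpEF group. The drug groups did not differ from vehicle beyond their spread (-0.12 for each, adjusted exact permutation p = 0.739 for TYA-018 and 0.800 for SGLT2i), nor from each other (-0.00, permutation p = 0.986).

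**Figure D2:**
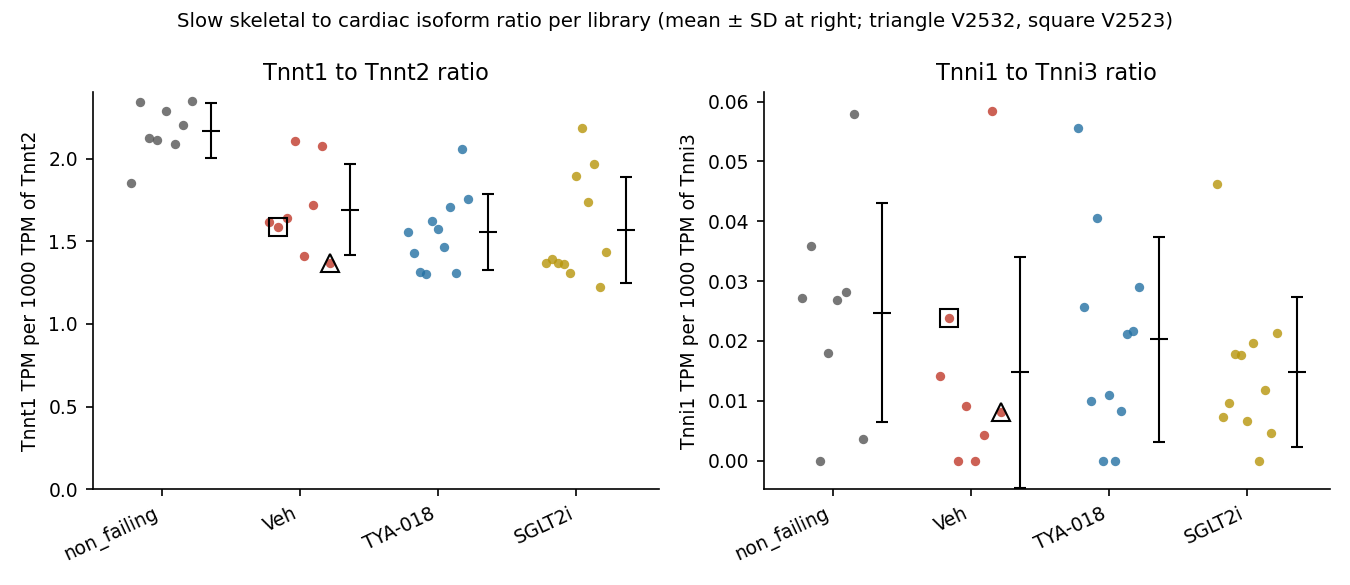
TPM of the slow isoform per 1000 TPM of the cardiac isoform in each library (points) of the 4 groups, for troponin T (left) and troponin I (right), with the mean ± SD at the right of each group. For troponin T the non_failing mean is 2.17 and the HFpEF group means lie between 1.56 and 1.69, and for troponin I the values scatter from 0 in every group.

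Troponin I, cardiac form. Tnni3 encodes the inhibitory subunit of the adult heart, a substrate of protein kinase A. Non_failing libraries held 4015 (V2507), 4961 and 6022 TPM as lowest, median and highest, and HFpEF+Veh libraries 3701 (V2532), 4246 and 4901 TPM. With TYA-018 the range was 3605 to 5178 TPM (median 4443 TPM) and with SGLT2i 3302 to 4618 TPM (median 4128 TPM). The groups overlapped on TPM, with 7 of 8 vehicle libraries inside the non_failing range. Tnni3 was lower in HFpEF+Veh than in non_failing by -0.34 on the log2 scale (SE 0.08, edgeR adjusted p = 0.0129, 8 of 8 libraries lower), and on log2(TPM + 1) with limma the difference was -0.23 and the call was lost (adjusted p = 0.0842). In HFpEF+SGLT2i it was lower by -0.32 (SE 0.08, edgeR adjusted p = 0.00632, 11 of 11 libraries lower) and in HFpEF+TYA-018 it differed from non_failing by -0.13 (SE 0.08, edgeR adjusted p = 0.331). The fold change of TYA-018 against vehicle was 0.22 (95% interval 0.06 to 0.37, unadjusted p = 0.00827), which did not pass after adjustment over all genes with edgeR (adjusted p = 0.126) and became 0.085 with library size alone and 0.057 on log2(TPM + 1). That of SGLT2i against vehicle was 0.02 (95% interval -0.13 to 0.17, edgeR adjusted p = 0.951) and became -0.06 with library size alone, where the median of all genes was -0.07, and -0.02 without V2523 and V2532.

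Troponin I, slow form. Tnni1, the fetal form of the heart and the form of slow fibres, was at the limit of detection. In all 38 libraries 112 reads were counted, 39 of them in non_failing, 16 in HFpEF+Veh, 31 in HFpEF+TYA-018 and 26 in HFpEF+SGLT2i, and 6 libraries held none. In 23 libraries it had 3 reads or fewer, and 3 reads, the upper limit that an observed count of 0 allows, equal 0.0441 to 0.203 TPM depending on the library. Pooled over libraries this is 0.151 CPM in non_failing (exact Poisson 95% interval 0.107 to 0.206) and 0.0613 in HFpEF+Veh (0.0351 to 0.0996), where intervals cover counting error only. Tnni1 did not pass the filter on low counts. Tested without that filter over 21871 genes, it differed between HFpEF+Veh and non_failing by -1.26 on the log2 scale (SE 0.66, edgeR adjusted p = 0.395), and did not pass.

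The Tnni1 to Tnni3 ratio was 0.0247 ± 0.0183 TPM per 1000 TPM (SD) in the 8 non_failing libraries and 0.0148 ± 0.0193 in the 8 vehicle libraries, or 0.00851 ± 0.00845 without V2530 (n = 7), which held 6 of the 16 vehicle reads. It was 0.0203 ± 0.0171 in the 11 TYA-018 libraries and 0.0148 ± 0.0125 in the 11 SGLT2i libraries. Each group had a library at 0, and none of the 6 comparisons of this ratio passed (adjusted permutation p from 0.800 to 0.901, exact where a group of 8 took part). A pseudocount of 0.1 TPM was added to both genes, which is above most Tnni1 values. With 1 TPM, which exceeds every Tnni1 value, the ratio varies mainly with Tnni3 and says little of Tnni1. On that scale HFpEF+SGLT2i against non_failing turned from -0.13 to 0.22 (adjusted permutation p = 0.0345), where Tnni3 itself differed by -0.32.

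Troponin C. Tnnc1, the calcium sensor of heart and slow fibres, was measured at 2232 (V2507), 2727 and 3044 TPM as lowest, median and highest in non_failing and at 2060, 2322 and 2502.1 TPM in HFpEF+Veh. The TYA-018 libraries ran from 1956 to 2731 TPM (median 2481 TPM) and those of SGLT2i from 1754 to 2598 TPM (median 2297 TPM). The groups overlapped, and 6 of 8 vehicle libraries lay within the non_failing range. Tnnc1 differed between HFpEF+Veh and non_failing by -0.28 on the log2 scale (SE 0.09, unadjusted p = 0.00260) and just missed the threshold (edgeR adjusted p = 0.0687), which it passed with DESeq2 (0.0332), with a length offset (0.0325) and when non_failing V2503 or V2510 or vehicle V2526 was left out. It was lower in HFpEF+SGLT2i than in non_failing by -0.30 (SE 0.08, edgeR adjusted p = 0.0163, 11 of 11 libraries lower), a call that was lost with only those 2 groups in the model (adjusted p = 0.0560). With TYA-018 it differed from non_failing by -0.06 (SE 0.08, edgeR adjusted p = 0.730). Against vehicle Tnnc1 differed by 0.22 with TYA-018 (95% interval 0.06 to 0.38, unadjusted p = 0.00934, edgeR adjusted p = 0.133, 11 of 11 libraries higher on CPM and 8 of 11 on TPM), which became 0.095 with library size alone and 0.077 on log2(TPM + 1). With SGLT2i it differed by -0.02 (95% interval -0.18 to 0.14, edgeR adjusted p = 0.952). The sign of that value turned with a length offset (0.024) and without V2526, V2563 or V2571. Between the drugs Tnnc1 was 0.24 log2 higher with TYA-018 (SE 0.07, unadjusted p = 0.00214, 11 of 11 libraries above the SGLT2i mean on CPM and 8 of 11 on TPM), with an edgeR adjusted p of 0.132 and 0.0462 by DESeq2.

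**Figure D3:**
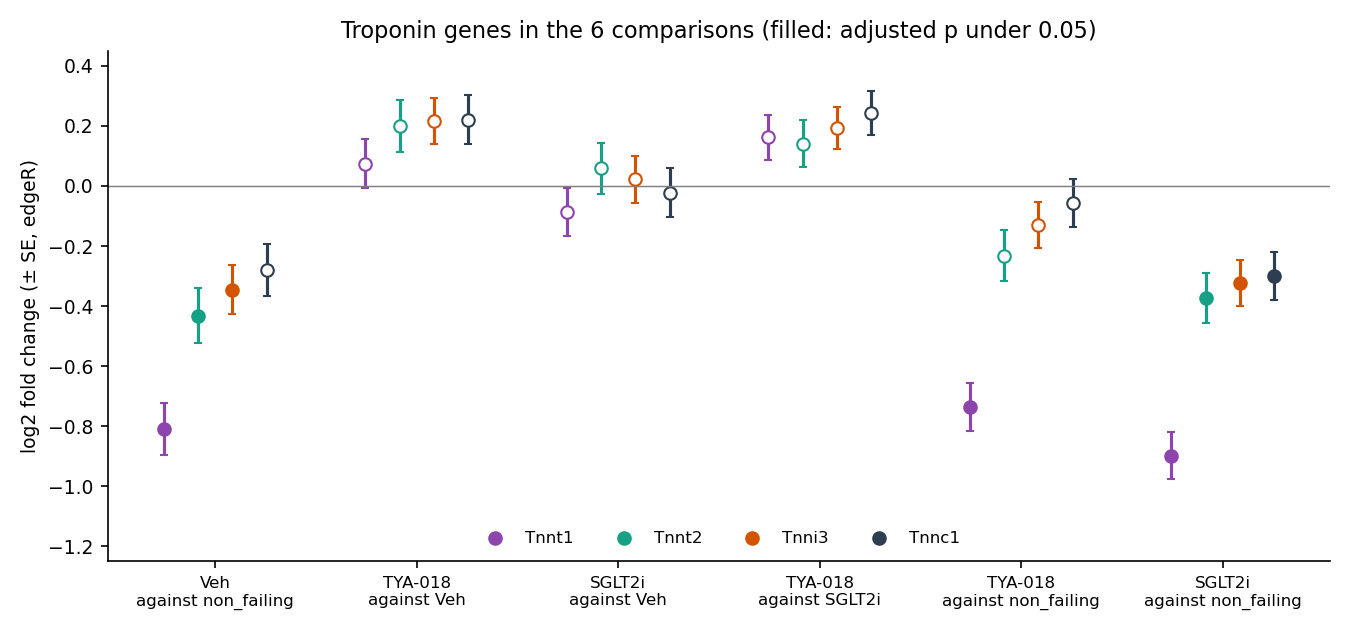
Log2 fold change (vertical axis, points) with its SE (bars) for the 4 troponin genes that passed the filter, in the 6 comparisons, with filled points where the edgeR adjusted p was under 0.05. Tnnt1 lies between -0.90 and -0.74 in the 3 comparisons with non_failing, below the other genes in each, and no point is filled in the comparisons among HFpEF groups.

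Counted over the members, 3 of the 4 that passed the filter (Tnnt1, Tnnt2 and Tnni3) were called lower in HFpEF+Veh than in non_failing, where 3.15% of all genes tested were called and 1.38% were called lower. In HFpEF+SGLT2i against non_failing all 4 were called lower, where 6.45% of genes were called and 2.99% were lower, and in HFpEF+TYA-018 against non_failing only Tnnt1 was, where 7.39% were called and 3.39% were lower. None of the 4 was called with TYA-018 or SGLT2i against vehicle, where 1.93% and 0.85% of genes were called. Without V2523 the calls with SGLT2i fell from 117 to 2 genes. With TYA-018 all 4 were above 0, where 51.8% of genes were below it, and 3 had an unadjusted p under 0.05 (17.5% of genes). With SGLT2i 2 were above 0 and 0 had an unadjusted p under 0.05 (10% of genes). No gene at all was called between the 2 drug groups with edgeR (0%), where 1821 genes (13.2%) had an unadjusted p under 0.05, 3 of the 4 members among them, and DESeq2 called 193. The median log2 fold change of the 4 was -0.39 in HFpEF+Veh, -0.18 in HFpEF+TYA-018 and -0.35 in HFpEF+SGLT2i against non_failing, beside 0.01 for all genes in each. Against vehicle their median was 0.21 with TYA-018 and -0.00 with SGLT2i, beside -0.01 and 0.01 for all genes. With library size alone the TYA-018 median was 0.078 beside -0.14 for all genes, so that the distance between them was 0.22 under either scaling. On log2(TPM + 1) it was 0.045 beside -0.084, a distance of 0.13. The difference in calls between the drug groups is no test of a difference between them, and the direct comparison of the drugs gave edgeR adjusted p-values of 0.340 (Tnnt1), 0.450 (Tnnt2), 0.212 (Tnni3) and 0.132 (Tnnc1).

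The summed level of the 5 genes was 1.29 ± 0.147% of all TPM (SD) in the 8 non_failing libraries and 1.09 ± 0.0702% in the 8 vehicle libraries. It was 1.12 ± 0.0957% in the 11 TYA-018 libraries and 1.03 ± 0.113% in the 11 SGLT2i libraries. The 10 cardiomyocyte markers summed to 23024 ± 2563.6 TPM in non_failing and 19833 ± 1352 TPM in HFpEF+Veh (SD, n = 8 each). Most of that gap lay in the myosin light chains Myl2 and Myl3, at 16403 ± 1746 and 13397 ± 640.2 TPM, the only markers of the 10 called there. The other 8 summed to 6621 ± 1156 TPM in non_failing and 6436 ± 1228 TPM in HFpEF+Veh, a gap smaller than either SD. On the log2 scale 6 of these 8 were below 0, down to -0.42 for Pln, -0.28 for Atp2a2 and -0.18 for Ryr2, and 2 were above it (Ttn at 0.16 and Mybpc3 at 0.04). The part of cardiomyocyte content in the troponin values was not tested. In such bulk samples fewer cardiomyocytes and less troponin RNA per cardiomyocyte cannot be told apart. Within the complex, Tnnc1 per Tnni3 was 0.531 ± 0.0247 in non_failing, 0.542 ± 0.0559 in HFpEF+Veh, 0.551 ± 0.0713 in HFpEF+TYA-018 and 0.546 ± 0.0566 in HFpEF+SGLT2i (SD). These means differed by less than the SD of any HFpEF group. Relative to Tnnt2 the means of both were above non_failing in each HFpEF group: Tnnc1 per Tnnt2 was 0.568 ± 0.0515 in non_failing and 0.622 ± 0.0453 (vehicle), 0.641 ± 0.0400 (TYA-018) and 0.615 ± 0.0650 (SGLT2i). Tnni3 per Tnnt2 was 1.07 ± 0.0929 in non_failing and 1.16 ± 0.135, 1.18 ± 0.168 and 1.13 ± 0.0905 in the same order. These ratios were not tested, and their ranges overlapped between the groups.

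The vehicle values were checked without the library with skeletal muscle RNA. V2532 held 16.9 TPM of Tnnt3, 12.7 TPM of Tnni2 and 15.1 TPM of Tnnc2, the fast skeletal troponins T, I and C, and was the highest vehicle library for each. Its slow and cardiac troponins did not stand out upward: Tnnt1 was 5.26 TPM (rank 2 from the lowest of 8), Tnni1 0.0303 TPM (rank 4), Tnnt2 3840 TPM (rank 4), Tnnc1 2302 TPM (rank 4) and Tnni3 3701 TPM (rank 1). Without V2532 the vehicle mean of Tnnt1 was 6.46 ± 1.00 TPM (SD, n = 7), against 6.31 ± 1.02 TPM (SD, n = 8) with it, and without V2523 it was 6.32 ± 1.103 TPM (SD, n = 7). Without both it was 6.50 ± 1.10 TPM (SD, n = 6). Tnnt2 was then 3698 ± 418, Tnni1 0.0622 ± 0.0940, Tnni3 4409 ± 305 and Tnnc1 2309 ± 165 TPM. With all 8, Tnnt2 was 3746 ± 365, Tnni1 0.0632 ± 0.0817, Tnni3 4302 ± 358 and Tnnc1 2317 ± 142 TPM. Without V2532 the vehicle ratio of Tnnt1 to Tnnt2 was 1.74 ± 0.260 per 1000 (SD, n = 7), without V2523 it was 1.71 ± 0.292 (SD, n = 7) and without both 1.76 ± 0.275 (SD, n = 6).

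With both libraries left out, Tnnt1 was lower in HFpEF+Veh than in non_failing by -0.77 (edgeR adjusted p = 1.57e-06), Tnnt2 by -0.46 (adjusted p = 0.00568), Tnni3 by -0.31 (adjusted p = 0.0350) and Tnnc1 by -0.25 (adjusted p = 0.108). The ratio was lower by -0.30 (exact permutation test with 6 against 8 libraries, adjusted p = 0.0253). The direction and the call of each of these were those of the full set. The calls of the fast genes rested on V2532. Tnnt3 was called higher in HFpEF+Veh than in non_failing (log2 fold change 2.51, SE 0.67, edgeR adjusted p = 0.0275) and lower than vehicle with TYA-018 (-2.98, adjusted p = 0.00397) and with SGLT2i (-2.61, adjusted p = 0.0182). Tnni2 was called lower than vehicle with SGLT2i (-1.53, adjusted p = 0.0476). Without V2532 none of these 4 calls was made with edgeR, at 0.063 (adjusted p = 0.872), -0.54 (0.442) and -0.16 (0.883) for Tnnt3 and -0.31 (0.572) for Tnni2, each with an unadjusted p above 0.05. The vehicle mean of Tnnt3 was then 0.519 TPM beside 0.450 ± 0.373 TPM in non_failing (SD, n = 8).

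**Figure D4:**
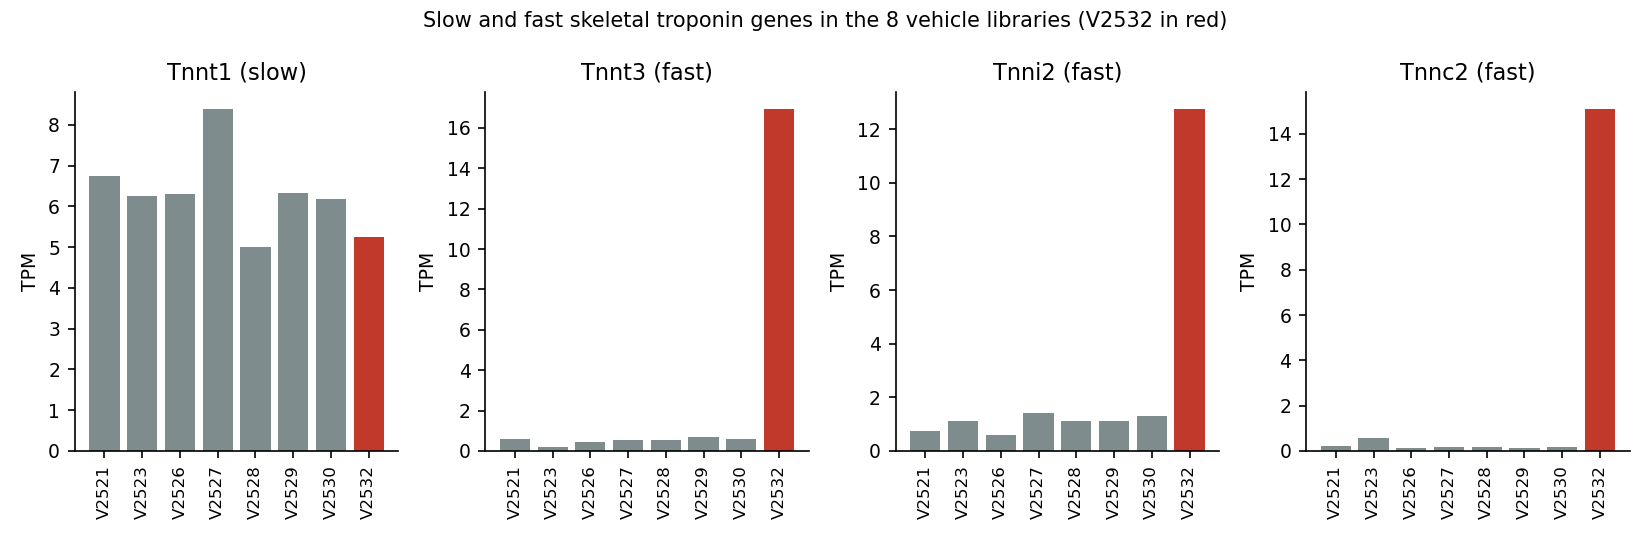
TPM (bars, from 0) of slow troponin T and of the 3 fast skeletal troponin genes in each of the 8 vehicle libraries, with V2532 in red. V2532 reaches 16.9, 12.7 and 15.1 TPM for the fast genes and 5.26 TPM for Tnnt1.

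The partners of troponin on the thin filament were measured as a list. Of 16 thin filament genes (actins, tropomyosins, cappers and nebulins, with Fhod3, a formin, and Actn2, Ldb3 and Fhl2, proteins of the Z-disc and sarcomere), all tested, 1 was called higher and 0 lower in HFpEF+Veh against non_failing with edgeR (3.15% of all genes were called), 3 had an unadjusted p under 0.05 (15.9% of all genes), 11 were below 0 (47.7% of all genes), and the median log2 fold change was -0.04. The called gene was Acta1, skeletal alpha-actin, at 188 TPM in HFpEF+Veh and 61.8 TPM in non_failing (log2 fold change 1.48, SE 0.28, edgeR adjusted p = 0.00141, 8 of 8 libraries higher). Acta1 was also higher with TYA-018 (1.52, SE 0.27, edgeR adjusted p = 0.000274) and with SGLT2i (1.44, SE 0.27, edgeR adjusted p = 0.000531) than in non_failing. Tmod4, a tropomodulin that caps actin filaments, was lower in HFpEF+SGLT2i than in non_failing (-0.32, SE 0.10, edgeR adjusted p = 0.0437) and was the only other thin filament gene called. That call was lost with no filter on low counts (adjusted p = 0.0592), with those 2 groups only (0.0812) and in 11 of 38 fits without 1 library (V2501, V2502, V2504, V2507, V2508, V2561, V2566, V2571, V2572, V2573 or V2575). Against vehicle 0 of 16 were called with either drug with edgeR, where 1.93% (TYA-018) and 0.85% (SGLT2i) of all genes were. With TYA-018 3 of the 16 had an unadjusted p under 0.05, beside 17.5% of all genes, and with SGLT2i 0 had, beside 10% of all genes.

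Of 12 genes typical of slow fibres, most of which the ventricle also uses, 10 were tested and 2 were called lower in HFpEF+Veh against non_failing, beside 1.38% of all genes. These were the ventricular and slow myosin light chains, Myl2 (-0.37, SE 0.09, edgeR adjusted p = 0.0121) and Myl3 (-0.41, SE 0.08, edgeR adjusted p = 0.00256), both lower in 8 of 8 libraries. Myl3 was lower in both drug groups against non_failing (-0.31 with TYA-018 and -0.34 with SGLT2i, edgeR adjusted p = 0.00814 and 0.00388) and Myl2 in the SGLT2i group (-0.37, edgeR adjusted p = 0.00348). Myh7, the slow myosin heavy chain, differed by 0.57 on the log2 scale in HFpEF+Veh (SE 0.21, edgeR adjusted p = 0.157), in the opposite direction to Tnnt1. Over the list 6 of 10 were below 0 and 4 above, the median was -0.25 beside 0.01 for all genes, and 5 had an unadjusted p under 0.05 (15.9% of all genes), of which Myoz2 (-0.28) and Csrp3 (-0.23), both lower in 8 of 8 libraries, were not called.

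Regulators of troponin were measured alongside. Among 18 kinases, phosphatases and binding partners of troponin I, such as the subunits of protein kinase A, 17 were tested and 0 were called in any of the 6 comparisons with edgeR (0 to 7.39% of all genes were called). At an unadjusted p under 0.05 there were 3 in HFpEF+Veh, 2 in HFpEF+TYA-018 and 1 in HFpEF+SGLT2i against non_failing, beside 15.9%, 22% and 19.6% of all genes, 2 (TYA-018) and 0 (SGLT2i) against vehicle and 1 between the drugs, beside 17.5%, 10% and 13.2%. Among 10 factors that splice troponin T transcripts, all tested, 0 were called in HFpEF+Veh against non_failing with edgeR and 5 had an unadjusted p under 0.05, beside 15.9% of all genes, with 9 of 10 below 0 (47.7% of all genes) and a median of -0.21. In HFpEF+TYA-018 against non_failing 2 of the 10 were called lower (3.39% of all genes), Rbfox1 (-0.74, SE 0.19, edgeR adjusted p = 0.0137) and Celf2 (-0.25, SE 0.08, edgeR adjusted p = 0.0483). In HFpEF+SGLT2i 4 were called lower, Mbnl1 (-0.25, edgeR adjusted p = 0.0183), Rbfox1 (-0.65, 0.0324), Srsf1 (-0.23, 0.0463) and Celf2 (-0.26, 0.0483), against 2.99% of all genes.

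The deposited mean effective transcript length of a gene can shift where its longer or shorter transcripts are used more, which was not tested here. It was divided by the median length ratio of each library. Of 30 comparisons over the 5 genes 1 passed: the Tnnt2 length was greater with TYA-018 than with vehicle by 0.06 on the log2 scale (exact permutation p = 0.000463, adjusted 0.0139, 11 of 11 libraries). The lengths before that division were 1187 ± 76.3 bases (SD, n = 11) and 1164 ± 75.5 bases (SD, n = 8), a difference of 0.03 log2 that did not pass (adjusted permutation p = 0.884, exact), so the call rests on the division.

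**Figure D5:**
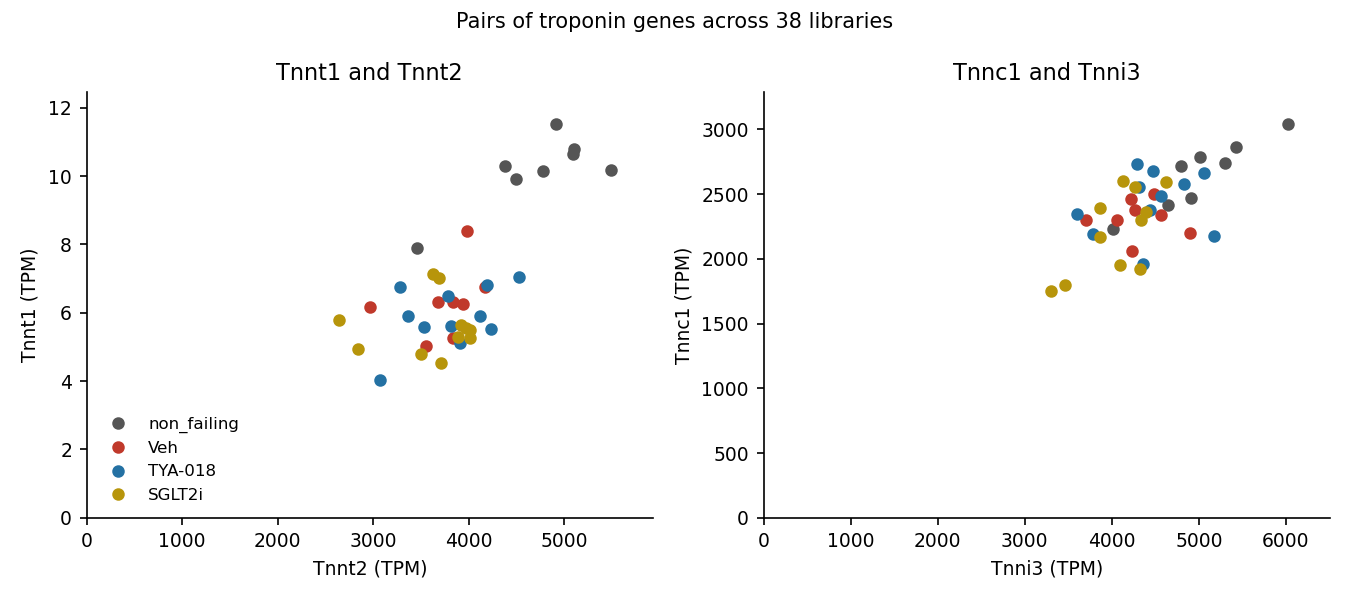
Tnnt1 against Tnnt2 (left) and Tnnc1 against Tnni3 (right), in TPM on linear axes, with 1 point per library coloured by group. On the left panel 7 of 8 non_failing libraries lie above every other library for Tnnt1, with V2507 at 7.91 TPM beside vehicle V2527 at 8.39 TPM, while the groups overlap on the right panel.

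Across the 38 libraries on the log2 CPM scale, Tnni3 and Tnnc1 followed each other most among the members (Spearman rho 0.81, Pearson r 0.81) and Tnnt1 followed the others less (rho 0.55 with Tnnt2, 0.57 with Tnni3 and 0.55 with Tnnc1). With the group means subtracted rho was 0.69 for Tnni3 and Tnnc1, 0.49 for Tnnt2 with either, 0.41 and 0.43 for Tnnt1 with Tnni3 and Tnnc1, and 0.28 for Tnnt1 and Tnnt2. These libraries share scaling and differ in depth, so the values are descriptions. Of 11122 genes compared, Tnnt1 was followed most by Epb4.1l4a (rho 0.80, r 0.72, 0.49 with group means subtracted), Lgi1 (0.73, 0.76 and 0.31), Zfp428 (0.70, 0.63 and 0.60), Mdga1 (0.65, 0.65 and 0.40) and Tcap (0.64, 0.56 and 0.41). Tnnt2 was followed by Mlf1 (rho 0.90, r 0.87), Ndrg4 (0.86, 0.81), Pde1c (0.85, 0.86), Tuba4a (0.84, 0.83) and Dhrs7c (0.84, 0.89). The nearest genes to Tnni3 were Myl2 (rho 0.94, r 0.90), Atp5o (0.92, 0.91), Alkbh7 (0.91, 0.90), Mrps35 (0.90, 0.90) and Ndufa12 (0.89, 0.91), and 3 of these (Ndufa12, Myl2 and Alkbh7) were also among the 5 nearest to Tnnc1, with Nudt22 (0.85, 0.83) and S100a1 (0.82, 0.81).

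The genes next to the members were examined after the members' values were seen. Within 50000 bases of Tnnt1, 5 of 8 annotated genes were tested, and in HFpEF+Veh against non_failing Tnni3 was the only one called (3.15% of all genes). In HFpEF+TYA-018 against non_failing 1 of the 5 was called (7.39% of all genes), a gene other than Tnni3. In HFpEF+SGLT2i against non_failing 2 were called (6.45% of all genes), Tnni3 among them. Ppp1r12c, 2890 bases from Tnnt1 on the same strand, differed by 0.12 on the log2 scale (SE 0.12, edgeR adjusted p = 0.682) and Dnaaf3, which overlaps Tnni3, -0.47 (SE 0.16, edgeR adjusted p = 0.108). Between Tnni1 and Tnnt2 lies Lad1, with -0.18 in HFpEF+Veh (SE 0.40, edgeR adjusted p = 0.873) and a mean of 0.610 TPM. Lad1 was called with edgeR in HFpEF+TYA-018 and in HFpEF+SGLT2i against non_failing, where 7.39% and 6.45% of all genes were. Around Tnnc1 0 of 5 tested genes were called in HFpEF+Veh against non_failing with edgeR (3.15% of all genes). In HFpEF+SGLT2i against non_failing 1 of them was (6.45% of all genes).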

How the data were processed

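RNA of left ventricles of 38 mice was measured by poly(A)-selected, stranded RNA-seq, with group and mouse number taken from the sample titles. Per the methods, the authors trimmed reads with fastp, quantified transcripts of GENCODE on GRCm38 with Salmon 1.6.0, corrected for sequence, GC and position bias (a version that the submitters' processing notes also list, beside the human build hg38) and combined transcripts into genes through tximport. Expected counts, as deposited, are estimated reads per gene, and the deposited TPM values were scaled by the authors to transcript length and library total. A deposited table of mean effective transcript lengths in bases was also used. The number of columns not mapped to a sample was 0.

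Expected counts were rounded, filtered with filterByExpr, scaled with TMM and tested with edgeR 4.0.16 (quasi-likelihood F test, two-sided, 1 model of 4 groups, Benjamini-Hochberg adjustment over all 13765 genes) in R 4.3.3. Standard errors were obtained as the absolute fold change (log2) over the square root of F. Ratios are log2((slow TPM + 0.1)/(cardiac TPM + 0.1)) per library, compared by two-sided permutation tests of the difference of group means: exact where a group of 8 took part, 100000 draws for 11 against 11. Transcript lengths were compared the same way. Alternative fits were DESeq2 1.42.0, limma 3.58.1 on log2(TPM + 1), RLE size factors in place of TMM, library size alone, no filter, a length offset and 2 groups only. Others were other ratios (pseudocount of 1 TPM, counts, percent) and leaving out libraries. Mice are separate animals, so p-values measure the spread between mice.

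The members and gene lists were chosen with earlier results of these data known. Named beside the members were called genes of the fixed lists (up to 8 by p for the thin filament and fast troponins, up to 4 for others) and the 5 genes with the highest Spearman rho to each member among genes with an average log2 CPM of at least 1.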

Additional observations from a re-analysis of the deposited data

Results flagged for a closer look

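In 30 groups of 8 values the lowest and highest library was compared with its nearest neighbour, as the gap divided by the range of the group, and 7 gaps exceeded Dixon's 95% critical value. Chance gives about 1 such gap in 20 groups. The gaps of the fast skeletal troponins come from V2532, known beforehand for its skeletal muscle RNA, so the count of 7 is no test against chance. On TPM non_failing V2507 stood below the other non_failing libraries for Tnnt1 (7.91 TPM, gap 0.551 of the range). It was also their lowest on TPM for Tnnt2, Tnni3 and Tnnc1. On CPM it lay inside their Tnnt1 range, at 12.7 CPM, and V2503 was the lowest. HFpEF+Veh V2530 stood above the others for Tnni1 (0.247 TPM from 6 counts, gap 0.589).

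HFpEF+Veh V2532 was the highest vehicle library for all 3 fast skeletal troponins, with a gap of 0.969 of the range for Tnnt3, 0.932 for Tnni2 and 0.972 for Tnnc2. Its relative transcript length of Tnnc1 was the lowest of the vehicle libraries (gap 0.598). The relative transcript length of Tnni1 was highest in non_failing V2510 (gap 0.709), a gene with at most 10 counts in any library.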

How the results depend on the processing

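The lower Tnnt1 in the 3 HFpEF groups against non_failing kept its direction and its call under all 8 alternative fits and without any single library, and so did Tnnt2 in HFpEF+Veh and HFpEF+SGLT2i against non_failing. The Tnnt1 to Tnnt2 ratio against non_failing kept both under all 4 alternatives. The number of members called moved from 1 to 2 in HFpEF+TYA-018 against non_failing with library size alone, with a length offset and with limma on log2(TPM + 1), each through Tnnt2, and from 0 to 1 between the drugs with DESeq2, through Tnnc1.

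Signs turned only where no call was made, with 1 exception named below. With library size alone the log2 fold change against vehicle became -0.058 for Tnnt1 with TYA-018, -0.021 for Tnnt2 with SGLT2i and -0.057 for Tnni3 with SGLT2i, a scaling that moved the median of all genes to -0.14 (TYA-018) and -0.07 (SGLT2i). With limma on log2(TPM + 1) these were -0.079, -0.033 and -0.064, beside medians of -0.084 and -0.041. Tnni3 with SGLT2i became -0.019 without both V2523 and V2532, and Tnnc1 with SGLT2i became 0.024 with a length offset. Leaving out 1 library gave -0.0082 (V2532) to 0.054 for Tnni3 and -0.056 to 0.0069 for Tnnc1 in that comparison, the latter above 0 without V2526, V2563 or V2571.

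A pseudocount of 1 TPM exceeds every Tnni1 value and so damps the differences in Tnni1, leaving mainly those in Tnni3. The Tnni1 to Tnni3 ratio then became 0.13 for HFpEF+Veh, 0.12 for HFpEF+TYA-018 and 0.22 for HFpEF+SGLT2i against non_failing, the last with an adjusted permutation p of 0.0345, -0.012 for TYA-018 against vehicle and -0.10 between the drugs. Without 1 library the Tnni1 to Tnni3 ratio ran from -0.22 to 0.054 (HFpEF+TYA-018 against non_failing), -0.27 to 0.0037 (HFpEF+SGLT2i against non_failing) and -0.050 to 0.14 (between the drugs). The Tnnt1 to Tnnt2 ratio between the drugs ran from -0.043 to 0.048 without 1 library and was 0.019 from counts. The greater Tnnt2 length with TYA-018 passed without any single library but not without the division by the library median (0.028). The number of length comparisons passing rose from 1 to 2 without V2501, V2566 or V2574. The cause of these changes was not tested.

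The number of genes called moved by over 1.5 times with the processing. It was 433 in HFpEF+Veh against non_failing and 916 without both V2523 and V2532. In TYA-018 against vehicle 266 became 42 to 1096, in SGLT2i against vehicle 117 became 0 to 457, and between the drugs 0 became 5 with a length offset and 193 with DESeq2. On log2(TPM + 1) with limma 1017 became 597 (TYA-018 against non_failing) and 888 became 527 (SGLT2i against non_failing). Leaving out vehicle V2523 gave 2 calls in SGLT2i against vehicle, leaving out V2530 or V2547 gave 167 or 177 in TYA-018 against vehicle, and leaving out V2570 or V2565 gave 17 or 9 between the drugs. The thin filament count fell from 2 to 1 in SGLT2i against non_failing, with the loss of Tmod4, and rose from 1 to 2 in HFpEF+Veh against non_failing with DESeq2 or without V2510, V2526, V2543 or V2571, and in TYA-018 against non_failing with library size alone. No paired analysis was possible because mouse numbers differ in every group. Depth limits Tnni1, with at most 10 reads per library.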
